A study of Mus musculus with 8 samples.

Results

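Chemokines and their receptors were examined in C3H10T1/2, an established mouse line of mesenchymal stem cells (MSCs) that can be driven to form adipocytes. The members were the genes whose symbol consists of *Ccl*, *Cxcl*, *Ccr* or *Cxcr*, a number and at most 1 further letter. This rule gave 52 of the 41325 genes listed in each library, 36 encoding ligands and 16 encoding receptors. RNA-seq was carried out on 4 stable lines, each at day 0 (confluent cells before induction) and 5 days after adipogenic induction, which gave 8 libraries without replicates. The shControl cells carried a control shRNA and are labelled wild type. The shKDM4D, shNFIB and shMLL1 lines carried an shRNA against *Kdm4d* (a histone demethylase), *Nfib* (a transcription factor) or *Kmt2a*, which encodes MLL1, a histone H3K4 methyltransferase. All 4 lines received the same induction, namely insulin, dexamethasone and isobutylmethylxanthine until day 2, followed by medium with insulin and then medium alone. The knockdown cells were puromycin-resistant clones expressing the shRNA from pLKO.1, and which clone was sequenced is not stated, so a property of 1 clone and an effect of the knockdown cannot be told apart. At each day the 3 knockdown lines were compared with the same shControl library.

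Chemokines are small secreted proteins that guide migrating cells, and each binds one or several G protein-coupled receptors, which are carried mainly by leukocytes. CC ligands of the MCP group attract monocytes, CXC ligands such as CXCL1 and CXCL5 attract neutrophils through CXCR2, and the CXCR3 ligands CXCL9, CXCL10 and CXCL11 are induced by interferon. CXCL12 differs from these as a homeostatic ligand that stromal cells make constitutively and that retains CXCR4-bearing cells in their niche. NF-κB and interferon-activated factors are known to bind the promoters of many inflammatory chemokine genes.

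Promoter sequences were available from RefSeq (GRCm38.p6, from 250 bases before to 50 bases after the transcription start) for 37 of the 52 members and for 8 of the 14 that were expressed. A strict κB letter pattern, GGGA followed by any base and TTTCC on either strand, is present in 0.411% of the 32851 windows of all genes. It occurs in the windows of *Cxcl1*, *Cxcl2* and *Cxcl3*, genes for neutrophil-attracting ligands in 1 group on chromosome 5, and of *Ccr3*. The stretches of these 3 ligand genes are shown because the same 11 bases (in capitals) lie close to each start, whereas the transcript levels given further on are far apart. They are at chr5:90891154-90891204, chr5:90903782-90903832 and chr5:90786008-90786058, all on the plus strand.
Cxcl1: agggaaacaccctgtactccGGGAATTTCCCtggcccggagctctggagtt
Cxcl2: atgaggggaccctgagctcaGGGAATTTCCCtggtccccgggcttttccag
Cxcl3: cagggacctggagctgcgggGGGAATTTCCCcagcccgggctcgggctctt

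The capitals begin 71 bases before the start of *Cxcl1*, 97 bases before that of *Cxcl2* and 73 bases before that of *Cxcl3*. With the looser κB consensus, which 8.46% of all windows hold, the windows of 3 expressed members matched, namely *Cxcl1*, *Cxcl10* and *Ccl9*. An interferon response element-type pattern, GAAA and a second GAAA separated by 2 bases, is held by 3.44% of all windows. Among the expressed members it was found only in the window of *Cxcl10*, which is shown because *Cxcl10* was among the genes that differed most between lines at day 5. The sequence (chr5:92348890-92349139, minus strand) ends 1 base before the start, and its capitals mark from left to right the interferon-type pattern, 1 match to the κB consensus and 2 overlapping matches to it.
Cxcl10: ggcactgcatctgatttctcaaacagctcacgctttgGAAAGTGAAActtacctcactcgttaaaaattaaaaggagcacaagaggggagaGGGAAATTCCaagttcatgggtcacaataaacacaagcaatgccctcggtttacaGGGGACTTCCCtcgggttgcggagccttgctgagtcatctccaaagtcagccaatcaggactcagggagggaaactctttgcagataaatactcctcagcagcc

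The C/EBP-type pattern TTGCNNAA, present in 10.8% of all windows, occurred in no window of an expressed member. A match to such letters describes the sequence and was not tested as a binding site. *Ccl2*, *Ccl5*, *Ccl7*, *Ccl11*, *Cxcl5* and *Cxcl16* were expressed and had no window to search.

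Expression is given as RPKM, the reads per kilobase of exon, scaled to the mapped reads of the library, in which levels of different genes can be compared. A gene was regarded as expressed when its RPKM exceeded 1 in any of the 8 libraries, and as changed when the RPKM of 2 libraries differed by more than 2-fold. There is 1 library per condition, so no difference between conditions has a replicate check and none was tested. The log2 ratios are given with an exact 95% counting interval (Clopper-Pearson) from the reads behind the 2 values, which covers counting error only and not the spread between cultures. The shallowest library held 15800000 and the deepest 38200000 mapped reads, and 3 reads on a gene with 1 kb of exons correspond to an RPKM of 0.0785 in the deepest and 0.189 in the shallowest library. *Nfib* was lower in shNFIB cells by log2 ratios of -2.10 and -2.33 at days 0 and 5, and *Kmt2a* in shMLL1 cells by -1.37 and -1.70. *Kdm4d* had between 1 and 15 reads in any library, and its log2 ratio in shKDM4D cells was -1.86 (-3.94 to -0.17) at day 5 and not distinguishable from 0 at day 0. Of the 8 mesenchymal markers 7 were expressed, and 6 or 7 exceeded an RPKM of 1 in each library. *Col1a1* was abundant in all libraries. By contrast, *Thy1* was at or below an RPKM of 0.139 in shKDM4D and shNFIB cells against 22.6 or more in shControl cells, and *Nt5e* was near 0 in all 8 libraries. The 12 leukocyte markers had summed RPKM values between 4.91 and 9.89, with *Cd14* and *Cd68* as the only ones over 1, and the defining markers *Ptprc*, *Adgre1* and *Cd3e* were at 0 or below 0.01. The 4 endothelial and the 4 epithelial markers summed to at most 1.72 and 1.81.

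Of the 52 members, 14 were expressed, and all 14 encode ligands. *Ccl2*, *Ccl5*, *Ccl6*, *Ccl7*, *Ccl9*, *Cxcl1*, *Cxcl5* and *Cxcl12* reached an RPKM of 10 in at least 1 library, whereas *Ccl8*, *Ccl11*, *Ccl17*, *Ccl25*, *Cxcl10* and *Cxcl16* stayed between 1 and 10 at their highest. Over all genes, 11513 of 41325 met the same limit. A member that passed the limit through a single high library had to differ from the others, so the counts of changed members are read beside the share of all expressed genes that changed. *Cxcl9* (0.837 at its highest) and the receptor gene *Ccr10* (0.670) lay just below the limit. Another 23 members had at least 1 read, and 13 were listed at 0 in all libraries, namely *Ccl1*, *Ccl3*, *Ccl12*, *Ccl19*, *Ccl21a*, *Ccl21b*, *Ccl22*, *Ccl24*, *Ccl26*, *Ccl27b*, *Cxcl2*, *Cxcl14* and *Ccr8*. The symbols *Ccl19*, *Ccl21a* and *Ccl21b* are not unique in the annotation. No reads were recovered from their values, so their 0 has no detection limit here.

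Transcripts for 5 ligands made up most of the chemokine signal. *Cxcl12*, *Ccl2*, *Cxcl5*, *Cxcl1* and *Ccl7* together held between 91.8% and 97.6% of the summed RPKM of the 52 members in 7 libraries, and 75.4% in shMLL1 cells at day 5. The summed RPKM at days 0 and 5 was 292 and 732 in shControl, 392 and 847 with shKDM4D, 442 and 961 with shNFIB, and 361 and 443 with shMLL1, so it was higher at day 5 in each line. The number of members above an RPKM of 1 was 6, 6, 8 and 7 at day 0 and 10, 7, 12 and 13 at day 5 for these lines. *Ccl2* was the highest member at day 0 in the 3 knockdown lines and *Cxcl12* in shControl cells, and at day 5 *Cxcl12* was the highest in all 4 lines.

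**Figure D1:**
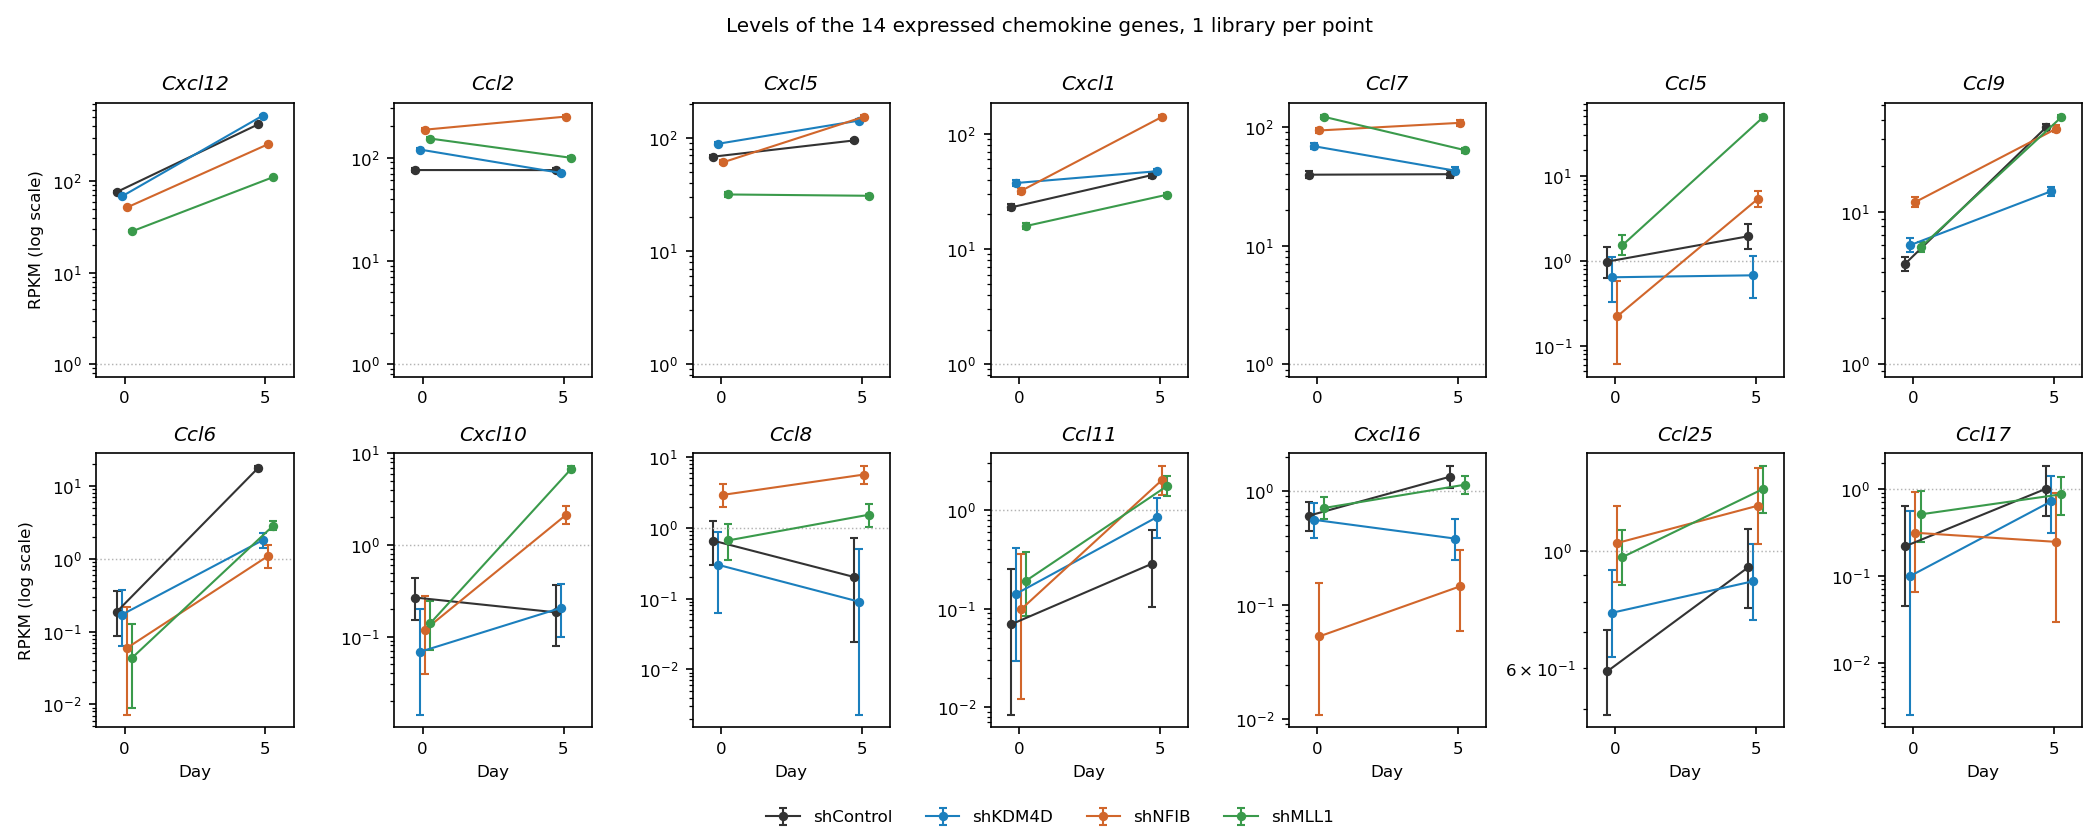
RPKM (log scale, its range set for each gene) of the 14 expressed chemokine genes at day 0 and day 5, with lines joining the days of each of the 4 lines and points set side by side for legibility. Each point is 1 library, the bars are exact 95% Poisson counting intervals, and the dotted line marks an RPKM of 1; *Cxcl12* rose in all lines, *Ccl5* and *Cxcl10* reached 49.0 and 6.76 with shMLL1 at day 5, and *Ccl6* was far higher in shControl cells (17.5) than in the others at day 5.

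*Cxcl12*, the homeostatic ligand of CXCR4 and ACKR3, was at RPKM values of 76.5 and 418 in shControl cells on the 2 days, 68.5 and 523 with shKDM4D, 51.8 and 254 with shNFIB, and 28.4 and 111 with shMLL1. It was higher at day 5 in every line, and the order of the lines at day 5 was shKDM4D, shControl, shNFIB and shMLL1, with no overlap of neighbouring counting intervals. Its log2 change from day 0 to day 5 was 2.45 (2.42 to 2.47) in shControl, 2.93 (2.90 to 2.96) with shKDM4D, 2.29 (2.26 to 2.33) with shNFIB and 1.97 (1.93 to 2.00) with shMLL1. Among the knockdown lines, only shMLL1 cells differed from shControl cells by more than 2-fold, with log2 ratios of -1.43 (-1.47 to -1.39) at day 0 and -1.91 (-1.93 to -1.89) at day 5. In shNFIB cells the ratio was -0.56 at day 0, which turned to 0.08 when *Gapdh* of the same library was the reference, and -0.72 at day 5. Ranked among all genes of a library, *Cxcl12* moved from position 491 to 96 in shControl cells and from 1532 to 403 with shMLL1. *Ccl25*, the other expressed homeostatic ligand gene, known from thymus and gut, ranged in RPKM from 0.590 to 1.31 and passed 2-fold in none of the 10 comparisons. Exons of *Ccl25* share 2.74% of their bases with *Elavl1* on the opposite strand.

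*Ccl2* and *Ccl7* encode the monocyte chemoattractants MCP-1 and MCP-3, ligands of CCR2, and lie next to each other on chromosome 11 (82035571 to 82037453 and 82045712 to 82047525, both on the plus strand). *Ccl2* was at 75.7 and 75.6 at days 0 and 5 in shControl cells, 119 and 70.9 with shKDM4D, 186 and 249 with shNFIB, and 153 and 99.4 with shMLL1. *Ccl7* followed with 39.6 and 40.0 in shControl, 68.9 and 42.9 with shKDM4D, 93.6 and 109 with shNFIB, and 122 and 63.8 with shMLL1. Neither passed 2-fold between days in any line, and at day 0 both were higher in all 3 knockdown lines than in shControl cells. At that day the log2 ratio to shControl cells was 0.66 (0.58 to 0.74) for *Ccl2* and 0.80 (0.67 to 0.93) for *Ccl7* in shKDM4D cells, 1.30 (1.22 to 1.37) and 1.24 (1.12 to 1.36) with shNFIB, and 1.01 (0.94 to 1.08) and 1.62 (1.51 to 1.73) with shMLL1. The difference persisted in shNFIB cells at day 5, with 1.72 (1.64 to 1.80) for *Ccl2* and 1.44 (1.30 to 1.58) for *Ccl7*. In shKDM4D cells at day 5 the ratios were -0.09 (-0.19 to 0.01) and 0.10 (-0.06 to 0.25), intervals that include 0, and in shMLL1 cells they were under 2-fold at 0.39 (0.31 to 0.48) and 0.67 (0.54 to 0.80). Between days, *Ccl2* and *Ccl7* fell by less than 2-fold in shKDM4D (log2 changes of -0.75 and -0.68) and shMLL1 cells (-0.62 and -0.93). The ratio of *Ccl7* to *Ccl2* was between 0.436 with shNFIB at day 5 and 0.798 with shMLL1 at day 0.

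Of the other 5 members of the MCP and eotaxin group, *Ccl8* and *Ccl11* were expressed at low levels and *Ccl12*, *Ccl24* and *Ccl26* were listed at 0. *Ccl8*, which encodes MCP-2, had 9 and 2 reads in shControl cells at days 0 and 5, 3 and 1 with shKDM4D, 28 and 46 with shNFIB, and 13 and 30 with shMLL1. In RPKM it was highest in shNFIB cells at both days (2.94 and 5.68), and it exceeded shControl cells by 2.15 (1.03 to 3.42) on the log2 scale at day 0 and by 4.81 (2.88 to 7.90) at day 5. *Ccl11*, which encodes the eosinophil attractant eotaxin-1, had RPKM values of 0.069 and 0.287 in shControl, 0.142 and 0.855 with shKDM4D, 0.099 and 2.04 with shNFIB, and 0.194 and 1.77 with shMLL1. All 4 lines had more of it at day 5. The log2 change was 2.59 (0.84 to 4.98) with shKDM4D, 4.37 (2.41 to 7.47) with shNFIB and 3.19 (2.14 to 4.46) with shMLL1, whereas the interval in shControl cells (-0.44 to 5.39) includes 0 with 2 and 6 reads.

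*Cxcl5* and *Cxcl1* encode CXCR2 ligands that attract neutrophils. *Cxcl5* was at 68.1 and 94.7 in shControl cells at days 0 and 5, 88.5 and 142 with shKDM4D, 60.8 and 154 with shNFIB, and 31.6 and 30.7 with shMLL1. The shMLL1 libraries were lowest at both days, with log2 ratios to shControl cells of -1.11 (-1.19 to -1.03) and -1.62 (-1.70 to -1.55), and only shNFIB cells passed 2-fold from day 0 to day 5 (1.34, interval 1.26 to 1.41). *Cxcl1* was at 22.9 and 43.8 in shControl, 37.3 and 47.2 with shKDM4D, 32.0 and 140 with shNFIB, and 15.8 and 29.6 with shMLL1. The shNFIB library at day 5 stood above the other 7, with a log2 ratio of 1.68 (1.60 to 1.76) to shControl cells and a change of 2.13 (2.04 to 2.23) from day 0. In the other lines the day 5 to day 0 change of *Cxcl1* stayed under 2-fold, at 0.93 (0.82 to 1.04), 0.34 (0.24 to 0.44) and 0.90 (0.80 to 1.01) in shControl, shKDM4D and shMLL1 cells. The change in shNFIB cells exceeded that in shControl cells by 1.20 (1.06 to 1.35) on the log2 scale, the interval again covering counting error only. Both genes lie in a group of 5 on chromosome 5 (90759360 to 90905938) with *Cxcl2*, *Cxcl3* and *Cxcl15*. *Cxcl2*, whose promoter holds the same 11 bases as that of *Cxcl1*, was listed at 0 in all 8 libraries, where 3 reads, taken as the limit that a count of 0 allows, correspond to an RPKM of 0.0916 in the shallowest library, and *Cxcl3* had 1 read in 2 libraries. *Cxcl15* had at most 9 reads.

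Among the macrophage inflammatory group, *Ccl9* and *Ccl6*, ligands of CCR1, rose from day 0 to day 5 in all lines. *Ccl9* had RPKM values of 4.56 and 35.7 at days 0 and 5 in shControl cells, 6.03 and 13.6 with shKDM4D, 11.6 and 35.0 with shNFIB, and 5.84 and 41.6 with shMLL1. Its log2 change was 2.97 (2.81 to 3.13) in shControl, 1.17 (0.99 to 1.35) with shKDM4D, 1.60 (1.47 to 1.73) with shNFIB and 2.83 (2.72 to 2.95) with shMLL1. At day 5 the level in shKDM4D cells was lower than in shControl cells (-1.39, interval -1.51 to -1.28), and the other lines were within 2-fold of shControl cells.

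*Ccl6*, which encodes a chemokine also called C10, was near the lower limit of detection at day 0, with 9, 6, 2 and 3 reads in the shControl, shKDM4D, shNFIB and shMLL1 lines. In shControl cells it reached 17.5 at day 5 (608 reads), against 1.80 with shKDM4D (70 reads), 1.09 with shNFIB (31 reads) and 2.83 with shMLL1 (194 reads). Thus the gene was higher at day 5 in each line and highest in shControl cells. The log2 change was 6.54 (5.61 to 7.68) in shControl, 3.40 (2.20 to 4.89) with shKDM4D, 4.19 (2.22 to 7.30) with shNFIB and 6.02 (4.45 to 8.31) with shMLL1. At day 5 the log2 ratios to shControl cells were -3.28 (-3.66 to -2.92) with shKDM4D, -4.01 (-4.58 to -3.49) with shNFIB and -2.63 (-2.87 to -2.39) with shMLL1. *Ccl6* was the only expressed member that was more than 2-fold lower at day 5 in all 3 knockdown lines. The 8 adipocyte markers (*Adipoq*, *Fabp4*, *Plin1*, *Cidec*, *Lpl*, *Cfd*, *Pparg* and *Cebpa*) differed in the same direction, with a summed RPKM at day 5 of 831 in shControl, 39.1 with shKDM4D, 12.1 with shNFIB and 12.5 with shMLL1 and none of them at 0, and the part of fat cell number in the *Ccl6* level was not tested. In these bulk libraries, fewer cells of a type and less RNA per cell cannot be told apart.

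*Ccl5* (also known as RANTES), a ligand of CCR1 and CCR3 that is induced by interferon and viral sensing, had RPKM values of 0.978 and 1.94 at days 0 and 5 in shControl cells, 0.640 and 0.675 with shKDM4D, 0.223 and 5.39 with shNFIB, and 1.53 and 49.0 with shMLL1. The 7 other libraries held between 4 and 82 reads of *Ccl5*, and the shMLL1 library at day 5 held 1795. From day 0 to day 5 the log2 change was 5.01 (4.62 to 5.42) with shMLL1 and 4.59 (3.18 to 6.50) with shNFIB, against 0.99 (0.21 to 1.79) in shControl and 0.08 (-1.14 to 1.32) with shKDM4D. At day 5 *Ccl5* was higher than in shControl cells by 4.66 (4.19 to 5.18) with shMLL1 and 1.47 (0.89 to 2.08) with shNFIB, whereas in shKDM4D cells the ratio was -1.52 (-2.53 to -0.60). At day 0 shNFIB cells with 4 reads were lowest, with a log2 ratio to shControl cells of -2.13 (-4.11 to -0.60), and every pair of neighbours in the order of levels had an interval that includes 0. *Ccl3*, in the same group on chromosome 11 (83525778 to 83664683), was listed at 0, and *Ccl4* had 2 reads in a single library.

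Of the genes for the interferon-inducible CXCR3 ligands, *Cxcl10* exceeded an RPKM of 1 only in shNFIB and shMLL1 cells at day 5. *Cxcl9* and *Cxcl11* stayed below it in all libraries. *Cxcl10* was at 0.267 and 0.184 in shControl cells at days 0 and 5, 0.068 and 0.205 with shKDM4D, 0.119 and 2.13 with shNFIB, and 0.139 and 6.76 with shMLL1. Relative to shControl cells, the day 5 level was higher by 3.53 (2.48 to 4.80) with shNFIB and 5.20 (4.21 to 6.42) with shMLL1, and shMLL1 cells exceeded shNFIB cells by 1.67 (1.32 to 2.03). *Cxcl9* had 40 reads with shNFIB and 21 with shMLL1 at day 5, 1 read in shControl cells at day 5 and none in the other 5 libraries. *Cxcl11* had 8 and 33 reads in the day 5 libraries of shNFIB and shMLL1 cells and none elsewhere. Thus *Cxcl10* was highest in shMLL1 cells and *Cxcl9* in shNFIB cells. For *Cxcl11* the counting intervals of RPKM overlapped between shMLL1 (0.157 to 0.320) and shNFIB cells (0.0575 to 0.262), so the order of these lines was not resolved. The annotation types *Cxcl11* as a polymorphic pseudogene. Exons of *Cxcl11* share 41.7% of their bases with *Gm2673* on the opposite strand, and those of *Cxcl10* share 5.91% with *Art3*.

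Interferon-stimulated genes differed between the same libraries. The 25 listed genes, all of them expressed, had a summed RPKM at days 0 and 5 of 128 and 214 in shControl, 74.4 and 173 with shKDM4D, 83.0 and 1419 with shNFIB, and 63.2 and 3181 with shMLL1. From day 0 to day 5, 10 of them were more than 2-fold higher in shControl, 20 with shKDM4D, 23 with shNFIB and 25 with shMLL1, and 1 (in shControl cells) was lower, beside 13.0%, 12.8%, 12.6% and 20.4% of all expressed genes that were higher. Relative to shControl cells at day 5, 21 were higher with shNFIB and 24 with shMLL1 and none was lower (beside 5.54% and 5.25% of all expressed genes that were higher), whereas in shKDM4D cells 5 were lower and none was higher (beside 4.57% that were lower). At day 0, 17, 13 and 14 were lower and 0, 1 and 2 higher in the shKDM4D, shNFIB and shMLL1 lines, beside 4.26%, 6.05% and 7.43% of all expressed genes that were lower, so the direction at the 2 days was opposite in shNFIB and shMLL1 cells and the same in shKDM4D cells. *Ifit3*, *Ifit1* and *Bst2*, antiviral effectors with the highest mean level in the list, had log2 ratios to shControl cells at day 5 of 4.55, 4.50 and 4.36 with shMLL1. With shNFIB the counting intervals of these ratios were 3.26 to 3.41, 3.90 to 4.10 and 3.35 to 3.80. Whether the levels of *Ccl5* and the CXCR3 ligands depend on interferon was not tested.

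**Figure D2:**
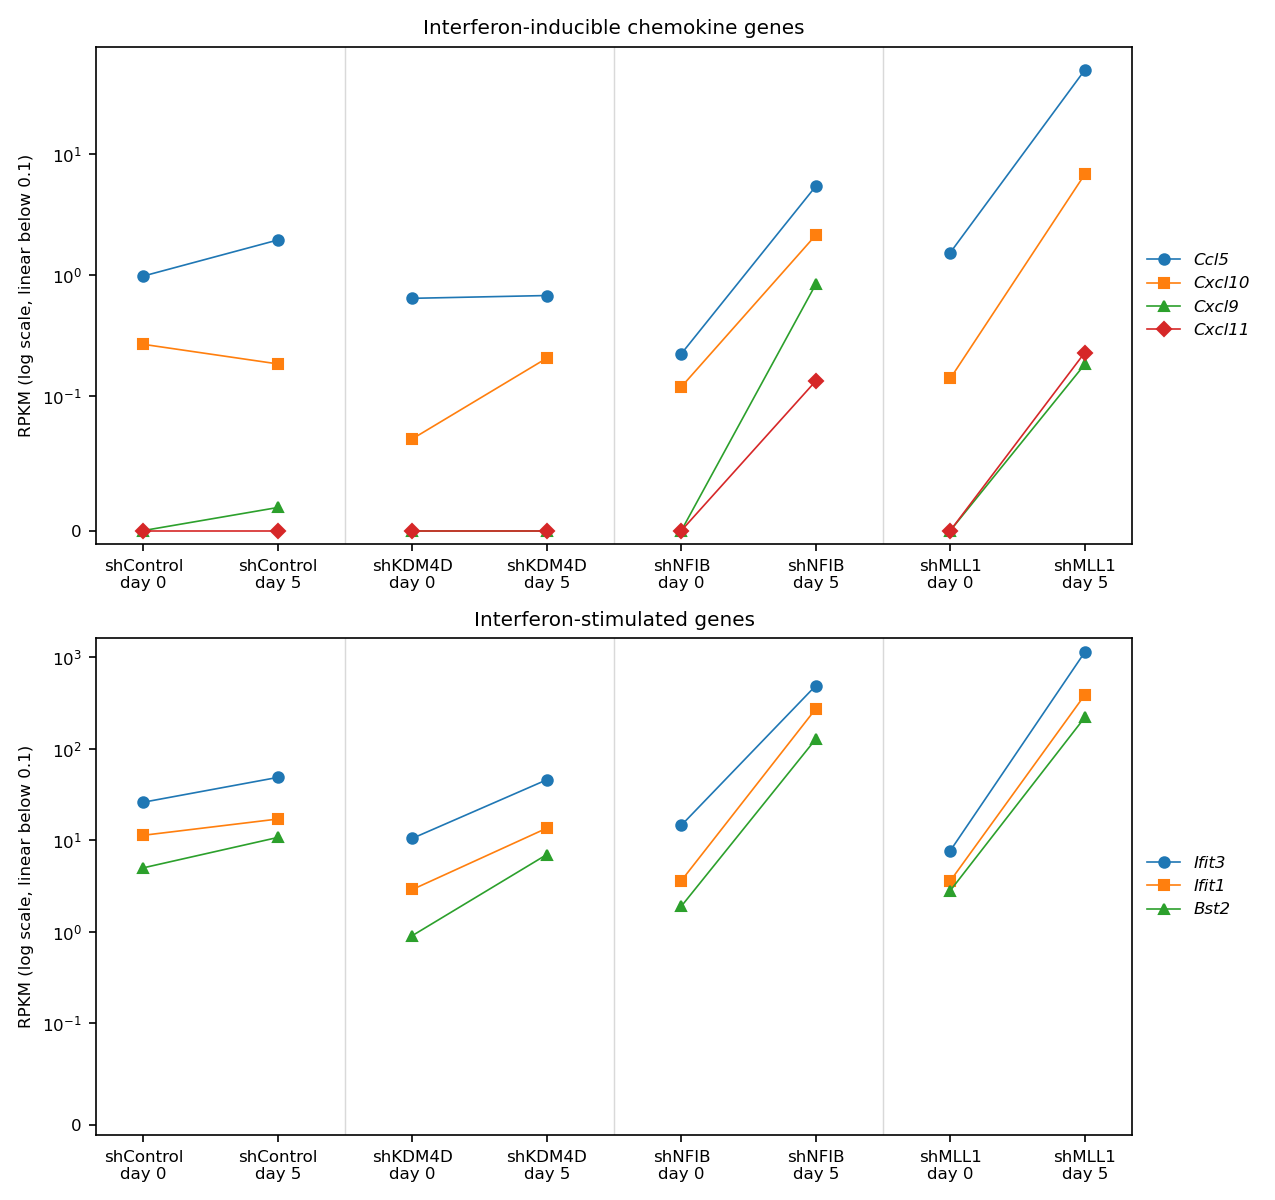
RPKM (log scale, linear below 0.1) in each of the 8 libraries of *Ccl5*, *Cxcl10*, *Cxcl9* and *Cxcl11* (upper panel) and of the interferon-stimulated genes *Ifit3*, *Ifit1* and *Bst2* (lower panel), with lines joining the 2 days of a line. Both sets are highest in the day 5 libraries of shNFIB and shMLL1 cells, where *Ccl5* is at 5.39 and 49.0.

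Of the 10 ligands outside these groups, *Ccl17* and *Cxcl16* were expressed, both at low levels. *Cxcl16*, a transmembrane ligand of CXCR6, was at 0.609 and 1.34 in shControl cells at days 0 and 5, 0.559 and 0.383 with shKDM4D, 0.053 and 0.146 with shNFIB, and 0.711 and 1.14 with shMLL1. The shNFIB libraries were lowest, with 3 and 7 reads against 49 and 78 in shControl cells, a log2 ratio of -3.52 (-5.84 to -1.88) at day 0 and -3.19 (-4.55 to -2.08) at day 5. In shKDM4D cells it was lower at day 5 (-1.80, interval -2.51 to -1.14) and -0.12 (-0.81 to 0.54) at day 0. Its exons share 18.3% of their bases with *Zmynd15* on the opposite strand, and whether reads were counted by strand is not stated. *Ccl17*, a ligand of CCR4, was highest in shControl cells at day 5 (1.01) and had between 1 and 17 reads in any library. Its only counting interval among the 10 comparisons that leaves out 0 was that of the change in shControl cells (2.20, interval 0.24 to 4.70). The shControl library at day 5 was also the only one in which *Ccl17* exceeded an RPKM of 1.

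Taking the 14 expressed members as a list, those that passed 2-fold from day 0 to day 5 were mostly higher at day 5. In shControl cells 6 were higher (*Ccl6*, *Ccl9*, *Ccl11*, *Ccl17*, *Cxcl12* and *Cxcl16*) and *Ccl8* was lower (9 and 2 reads, interval -4.96 to 0.57), beside 13.0% of all expressed genes that were higher and 8.56% that were lower. In shKDM4D cells 6 were higher and 1 was lower (*Ccl8*, with 3 and 1 reads), beside 12.8% and 8.44%. In shNFIB cells 9 were higher and 0 lower, beside 12.6% and 4.96%. In shMLL1 cells 7 were higher and 0 lower, beside 20.4% and 6.89%. Some members counted as higher had intervals that include 0. These were *Ccl11* in shControl cells, *Ccl17* and *Cxcl10* with shKDM4D, and *Cxcl16* with shNFIB (3 and 7 reads). *Ccl6*, *Ccl9*, *Ccl11* and *Cxcl12* were higher in all 4 lines. The median log2 change of the 14 was 0.96 in shControl, 0.51 with shKDM4D, 1.53 with shNFIB and 1.06 with shMLL1, against 0.03, 0.03, 0.10 and 0.17 over all expressed genes. *Ccl6*, *Ccl11*, *Ccl17*, *Cxcl10* and *Cxcl16* exceeded an RPKM of 1 only at day 5, so the limit itself favoured higher values at that day. The shares and medians over all expressed genes do not remove this, and a general rise of the members cannot be read from these counts and medians.

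**Figure D3:**
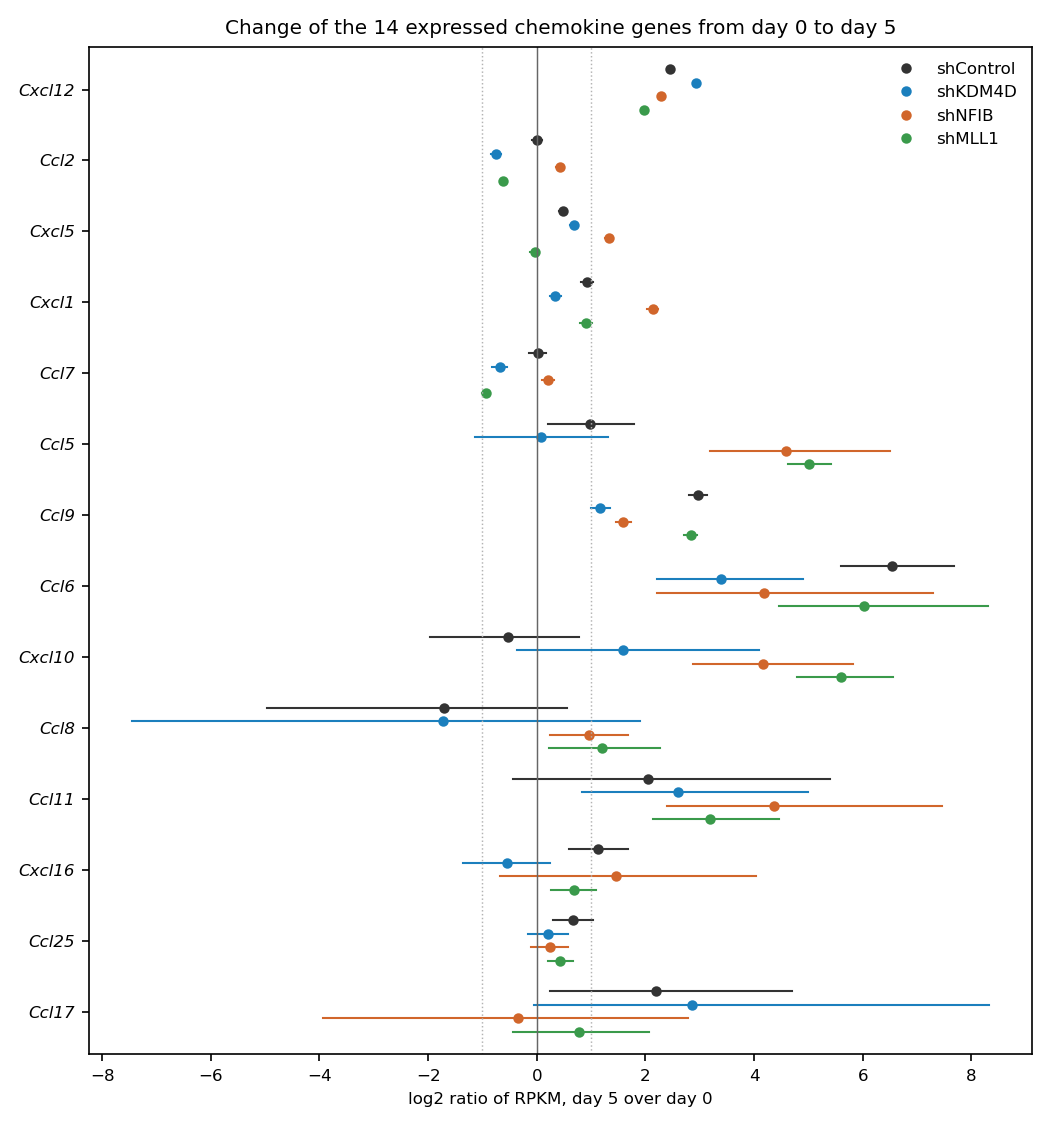
Log2 ratio of RPKM at day 5 over day 0 for the 14 expressed chemokine genes in the 4 lines, with horizontal bars for the exact 95% counting interval of each ratio and dotted lines at 2-fold. *Cxcl12*, *Ccl9* and *Ccl6* lie beyond 2-fold to the right in all lines, whereas *Ccl2* and *Ccl7* lie between the dotted lines and genes with few reads such as *Ccl8* and *Ccl17* have wide bars.

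Relative to shControl cells at day 0, 1 member was higher and 3 were lower in shKDM4D cells (beside 1.98% and 4.26% of all expressed genes), and of these 4 only *Cxcl10* (-1.97, interval -4.39 to -0.16) had an interval that leaves out 0. In shNFIB cells 4 were higher (*Ccl2*, *Ccl7*, *Ccl8* and *Ccl9*) and 4 lower (*Ccl5*, *Ccl6*, *Cxcl10* and *Cxcl16*), beside 2.95% and 6.05%, the intervals of *Ccl6* and *Cxcl10* including 0. In shMLL1 cells 4 were higher, *Ccl2* and *Ccl7* with intervals that leave out 0 and *Ccl11* and *Ccl17* with intervals that include it, and *Ccl6*, *Cxcl5* and *Cxcl12* were lower, beside 1.67% and 7.43%. The median log2 ratio of the 14 was 0.12, 0.50 and 0.29 in the shKDM4D, shNFIB and shMLL1 lines, against 0.00, 0.03 and -0.07 over all expressed genes.

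At day 5 the number of changed members was larger than at day 0 in shKDM4D and shNFIB cells and the same as at day 0 in shMLL1 cells. In shKDM4D cells 1 member was higher (*Ccl11*) and 5 were lower (*Ccl5*, *Ccl6*, *Ccl8*, *Ccl9* and *Cxcl16*), beside 1.88% and 4.57% of all expressed genes, the interval of *Ccl8* including 0. In shNFIB cells 7 were higher (*Ccl2*, *Ccl5*, *Ccl7*, *Ccl8*, *Ccl11*, *Cxcl1* and *Cxcl10*) and 3 lower (*Ccl6*, *Ccl17* and *Cxcl16*), beside 5.54% and 5.67%, the interval of *Ccl17* including 0. In shMLL1 cells 4 were higher (*Ccl5*, *Ccl8*, *Ccl11* and *Cxcl10*) and 3 lower (*Ccl6*, *Cxcl5* and *Cxcl12*), beside 5.25% and 4.02%. *Ccl5*, *Ccl8*, *Ccl11* and *Cxcl10* were thus higher in both shNFIB and shMLL1 cells, comparisons that share the shControl library. *Ccl11* and *Cxcl10* exceeded an RPKM of 1 only in the day 5 libraries of these lines. *Ccl8* exceeded it only there and in shNFIB cells at day 0 (2.94). The limit thus favoured this result for *Ccl8*, *Ccl11* and *Cxcl10*. The median log2 ratio was -0.09, 1.07 and 0.31 in the shKDM4D, shNFIB and shMLL1 lines, against 0.01, 0.09 and 0.07 over all expressed genes. Compared directly at day 5, shNFIB cells exceeded shMLL1 cells by 2.24 (2.17 to 2.32) for *Cxcl1* and 1.33 (1.27 to 1.39) for *Ccl2*, and were lower by 3.19 (2.87 to 3.52) for *Ccl5*.

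**Figure D4:**
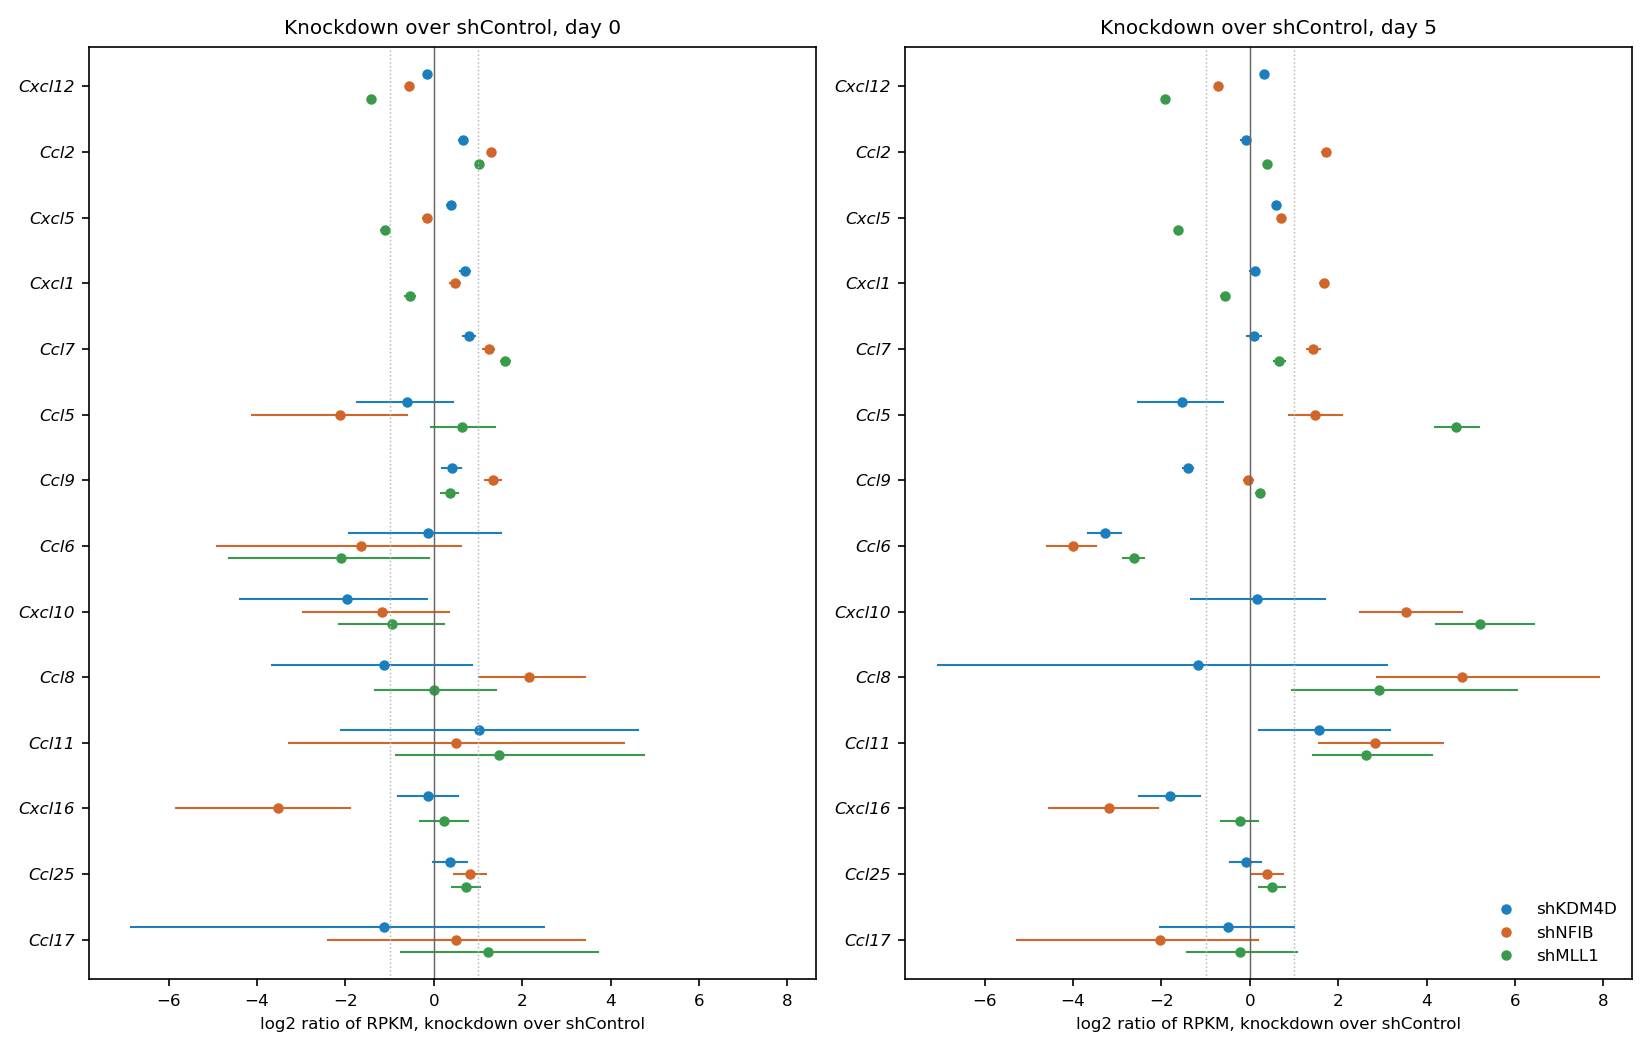
Log2 ratio of RPKM in the shKDM4D, shNFIB and shMLL1 lines over shControl cells at day 0 (left) and day 5 (right) for the 14 expressed chemokine genes, with bars for the exact 95% counting interval and dotted lines at 2-fold. At day 5 *Ccl6* lies to the left in all 3 lines, *Ccl5* to the left in shKDM4D (-1.52) and to the right in shNFIB (1.47) and shMLL1 cells (4.66), and *Cxcl12* and *Cxcl5* lie to the left of the 2-fold line in shMLL1 cells only.

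None of the 16 receptor genes was expressed by the same limit. *Ccr10*, which encodes the receptor of CCL27 and CCL28, reached the highest level of them in any library (0.670), with RPKM values between 0.208 and 0.239 in the 4 libraries of day 0 and between 0.501 and 0.670 in those of day 5. These levels rested on 7 to 33 reads per library. The log2 change of *Ccr10* was 1.17 (0.01 to 2.40), 1.69 (0.44 to 3.14), 1.24 (-0.17 to 2.79) and 1.24 (0.30 to 2.26) in the shControl, shKDM4D, shNFIB and shMLL1 lines. *Cxcr4*, which encodes the signalling receptor of CXCL12, had 16 reads (RPKM 0.453) with shKDM4D at day 0 and between 0 and 7 in the other libraries. *Ccr7* had 2 to 16 reads, *Cxcr6* at most 11, and *Cxcr1* at most 5. *Ccr1*, *Ccr2* and *Ccr3*, receptors of CC ligands that were expressed here, had at most 2 reads in any library, as had *Cxcr2* and *Cxcr3*. *Ccr8* was listed at 0.

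The receptor genes *Ackr3* and *Cmklr1*, which lie outside the name pattern, were expressed in all libraries. *Ackr3*, which encodes an atypical receptor that binds and clears CXCL12, was at 6.72 and 9.35 at days 0 and 5 in shControl cells, 11.8 and 12.1 with shKDM4D, 10.1 and 13.1 with shNFIB, and 6.44 and 12.0 with shMLL1. The ratio of the *Cxcl12* level to that of *Ackr3* was between 4.41 with shMLL1 at day 0 and 44.7 in shControl cells at day 5. *Cmklr1*, which encodes a receptor for chemerin, lay between 4.26 and 9.89. Of the 15 listed genes of the chemokine system outside the pattern, 6 were expressed, and the ligand gene *Cx3cl1* was more than 2-fold higher at day 5 in all lines, with log2 changes of 1.81, 2.38, 1.79 and 1.31 in the shControl, shKDM4D, shNFIB and shMLL1 lines. In each line 2 of these genes, *Cx3cl1* and *Ccrl2*, were more than 2-fold higher at day 5 and none was lower. Over all expressed genes, 12.6% to 20.4% were higher and 4.96% to 8.56% lower. *Ccrl2* exceeded an RPKM of 1 only in shMLL1 cells at day 5 (1.19), so the limit favoured its count as higher. At days 0 and 5 it had only 0 and 9 reads with shKDM4D and 0 and 5 with shNFIB. Against shControl cells at most 1 differed in any comparison, beside 1.67% to 5.54% of all expressed genes that were higher and 4.02% to 7.43% that were lower.

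**Figure D5:**
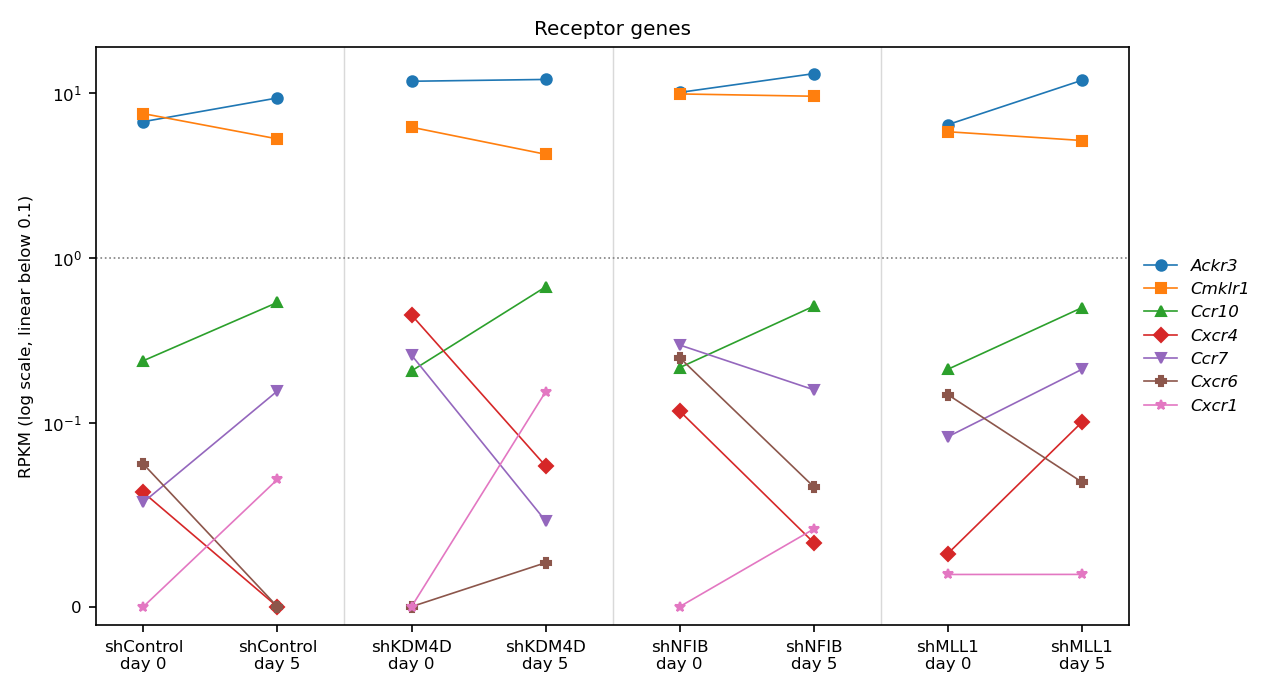
RPKM (log scale, linear below 0.1) in each of the 8 libraries of the atypical receptor gene *Ackr3*, the chemerin receptor gene *Cmklr1* and 5 chemokine receptor genes of the name pattern, with lines joining the 2 days of a line and a dotted line at an RPKM of 1. *Ackr3* and *Cmklr1* lie above the limit in all libraries, and *Ccr10*, *Cxcr4*, *Ccr7*, *Cxcr6* and *Cxcr1* lie below it in all.

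Genes that act downstream of chemokine receptors or process chemokines were measured alongside. Of 21 such genes listed, 12 were expressed, with *Gnai2* (an inhibitory G protein subunit) between an RPKM of 145 and 253, *Mmp2* (a matrix protease that can cleave CXCL12) between 34.5 and 298 and *Gnb1* between 81.4 and 104. *Mmp2* was more than 2-fold higher at day 5 in all lines, with log2 changes of 1.36, 1.92, 1.35 and 2.74 in the shControl, shKDM4D, shNFIB and shMLL1 lines. *Dpp4*, which encodes another protease that cleaves CXCL12, was listed at 0. In the list as a whole 3, 2, 2 and 2 genes were higher and 0, 0, 1 and 2 lower at day 5 in the 4 lines, where between 12.6% and 20.4% of all expressed genes were higher and between 4.96% and 8.56% lower. Against shControl cells none was higher and at most 2 were lower in any comparison. Over all expressed genes, between 1.67% and 5.54% were higher and between 4.02% and 7.43% lower in those comparisons.

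The NF-κB and inflammatory list held 34 genes, of which 27 were expressed. From day 0 to day 5, 6, 6, 7 and 9 were more than 2-fold higher and 2, 3, 1 and 1 lower in the shControl, shKDM4D, shNFIB and shMLL1 lines, beside 13.0%, 12.8%, 12.6% and 20.4% of all expressed genes that were higher and 8.56%, 8.44%, 4.96% and 6.89% that were lower. Against shControl cells, shNFIB cells had 3 higher and 0 lower at day 0, beside 2.95% and 6.05% of all expressed genes. At day 5 they had 5 higher and 1 lower, beside 5.54% and 5.67%. These counts of higher genes were the largest of the 3 knockdown lines at both days, and so was the share of higher genes over all expressed genes. *Csf1* (a macrophage growth factor), *Tnfrsf1a* (a TNF receptor) and *Rela* (an NF-κB subunit), the 3 with the highest mean level, stayed within 2-fold in all 10 comparisons. *Rela* had log2 ratios of 0.42 and 0.44 to shControl cells at days 0 and 5 with shNFIB. The part of NF-κB in the *Cxcl1*, *Ccl2* and *Ccl7* levels of shNFIB cells was not tested.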

How the data were processed

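The deposited values were RPKM per gene and library. The authors prepared SMARTer stranded libraries, sequenced them on a HiSeq 2500 and used CLC Genomics Workbench 11.0.1 to map them to GRCm38. How multi-mapped reads and strand were handled is not given in the sources used here. Samples were grouped by line and day as labelled. Reads were recovered from RPKM and GENCODE M21 exon lengths, and 96.2% to 96.6% of values between 1 and 1000 reads were whole within 0.02 read. Ratios of RPKM were taken without a pseudocount, each with a Clopper-Pearson interval (Python 3.11.15, numpy 2.4.6, pandas 2.3.3, scipy 1.17.1, matplotlib 3.10.9). Every expressed member was named with its values, members with a maximum between 0.5 and 1 were named as just outside, and of each neighbouring list the 2 or 3 genes of highest mean RPKM were named. *Cx3cl1*, *Cmklr1*, *Ccrl2*, *Dpp4* and the receptor genes described singly were named in addition. The members and lists were chosen with earlier results of these data known, and the κB consensus was searched after the strict pattern. Alternatives were other filters, pseudocounts of 0.1 and 1, quantile and median-of-ratios scaling, the ratio to *Gapdh*, a total without 2 ribosomal RNA-like genes and a call that also needs an interval without 0. These 2 ribosomal RNA-like genes held 7.95% to 10.5% of reads at day 0 and 3.07% to 3.62% at day 5.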

Additional observations from a re-analysis of the deposited data

Results flagged for a closer look

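*Ccl5* differed from shControl cells in opposite directions in several comparisons. In shNFIB cells its log2 ratio to shControl cells was -2.13 at day 0, with 4 reads in the shNFIB library, and 1.47 at day 5. At day 5 the ratio was -1.52 in shKDM4D cells, against 1.47 in shNFIB cells and 4.66 in shMLL1 cells. With 1 library per condition these differences were not tested.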

How the results depend on the processing

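No ratio that passed 2-fold changed its direction under any alternative. Dropping the filter had the greatest effect on the counts. Without it, 39 of the 52 members counted as expressed, and the number past 2-fold from day 0 to day 5 was 19 in shControl, 21 with shKDM4D, 23 with shNFIB and 25 with shMLL1. Against shControl cells it was then 13, 19 and 16 at day 0 and 18, 25 and 20 at day 5 in the shKDM4D, shNFIB and shMLL1 lines. A pseudocount of 1 reduced the counts from day 0 to day 5 to 3 in shControl and 3 with shKDM4D, and those against shControl cells to 0 (shKDM4D), 4 (shNFIB) and 4 (shMLL1) at day 0 and 2 (shKDM4D) at day 5. For shKDM4D over shControl cells at day 0, where the count was 4, a pseudocount of 0.1 left 1, quantile normalization 2 and the requirement of an interval without 0 left 1. That requirement left 4 of 7 for the change in shKDM4D cells. Relative to *Gapdh*, whose RPKM was between 158.7 and 326.3, the median of all expressed genes shifted by up to 0.64 on the log2 scale, and by at most 0.27 under quantile normalization. The labels give no replicate numbers, and each condition has 1 library, so no replicate could be left out. A shared day effect with the 4 lines as pairs was not tested, since the lines carry different shRNAs and are not replicates of 1 condition. Differences between members with fewer than about 10 reads are limited by depth.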
